A study of Homo sapiens with 4 samples.

Results

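Interferon-stimulated genes are the genes that cells switch on after interferons bind their receptors, and many of their products block steps of viral growth. Receptor-bound JAK kinases phosphorylate STAT2, which joins IRF9 in a complex that binds the interferon-stimulated response element in the promoters of these genes. Epithelial cells can also keep some of these genes active at a low level without infection. The list examined here holds 38 such genes. A gene was measured where a probe set (the group of array probes summarised into 1 value) was annotated to its symbol and to no other, without a filter on low values. This gave 37 of 38 genes, out of 20918 genes measured in all, and STAT2 has no probe set named here. IRF9 was the 1 gene with several such probe sets, of which the one with the highest mean was used.

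RNA came from MCF10A, a non-tumorigenic human breast epithelial line, in 4 versions that each carried a stable transfection. The first carried Her2 (ERBB2, a receptor tyrosine kinase) together with PIK3CA H1047R (a mutant form of the enzyme that makes the lipid messenger PIP3 when such receptors signal). The others carried the mutant PIK3CA alone, Her2 alone, or LacZ, a bacterial enzyme gene that served as the control. All 4 versions grew in the same SFIHE medium without treatment. The labels name no added interferon or virus, which is not a statement that none was used. The labels do not give the promoter of the introduced genes or say whether a version is 1 clone. With a single array for each version, the differences below lack any replicate, an SD cannot be given and no test was run. Below, the double array is the array labelled with Her2 and mutant PIK3CA. Values are deposited log2 values, a difference of 1 is 2-fold, and genes were counted at a difference of at least 1.

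Of the introduced genes, ERBB2 alone was checked, and its values on the single-gene arrays went against their labels. PIK3CA was not checked in this way. The probe set annotated to ERBB2 and the microRNA gene MIR4728 read 7.39 on the double array, 8.48 on the array labelled mutant PIK3CA, 4.29 on the array labelled Her2 and 5.96 on the array labelled LacZ. Directions are therefore given for arrays by their labels, and this doubt about the single-gene arrays applies to every result that uses them. Medians over all 53617 probe sets lay between 1.13 and 1.17 on the 4 arrays. The file used here has no detection call, so a value near these medians may be background, and a difference from such a value can understate a change. KRT5, a basal keratin of this line, read 7.14 on the double array and 7.08 to 7.52 on the others, whereas the epithelial cadherin CDH1 read 5.07 on the double array, against 9.13, 8.94 and 9.34 on the arrays labelled mutant PIK3CA, Her2 and LacZ. In RNA from whole cultures, a larger share of cells that express a gene cannot be told apart from more RNA per cell.

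At or above log2 3 on any array were 11 of the 37 measured genes. These were IFI6, IFI44, IFI44L, IFIT5, IFITM2, IFITM3, DDX60, SAMD9, SAMD9L, TRIM22 and USP18. The share was 29.7%, against 39.9% of all genes measured. Just inside this level lay IFI44, with a highest value of 3.17, and just outside it HERC6, with 2.91. The double array held all 11 of them at or above 3, against 3 on the array labelled mutant PIK3CA, 5 on the array labelled Her2 and 4 on the array labelled LacZ. For 6 genes it was the only array at or above 3, so these genes met the level through that array and had to differ. The shares of all genes for these counts on single arrays were not computed, so nothing is read from the contrast. IFITM2, IFIT5 and SAMD9 reached it on all 4 arrays.

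**Figure D1:**
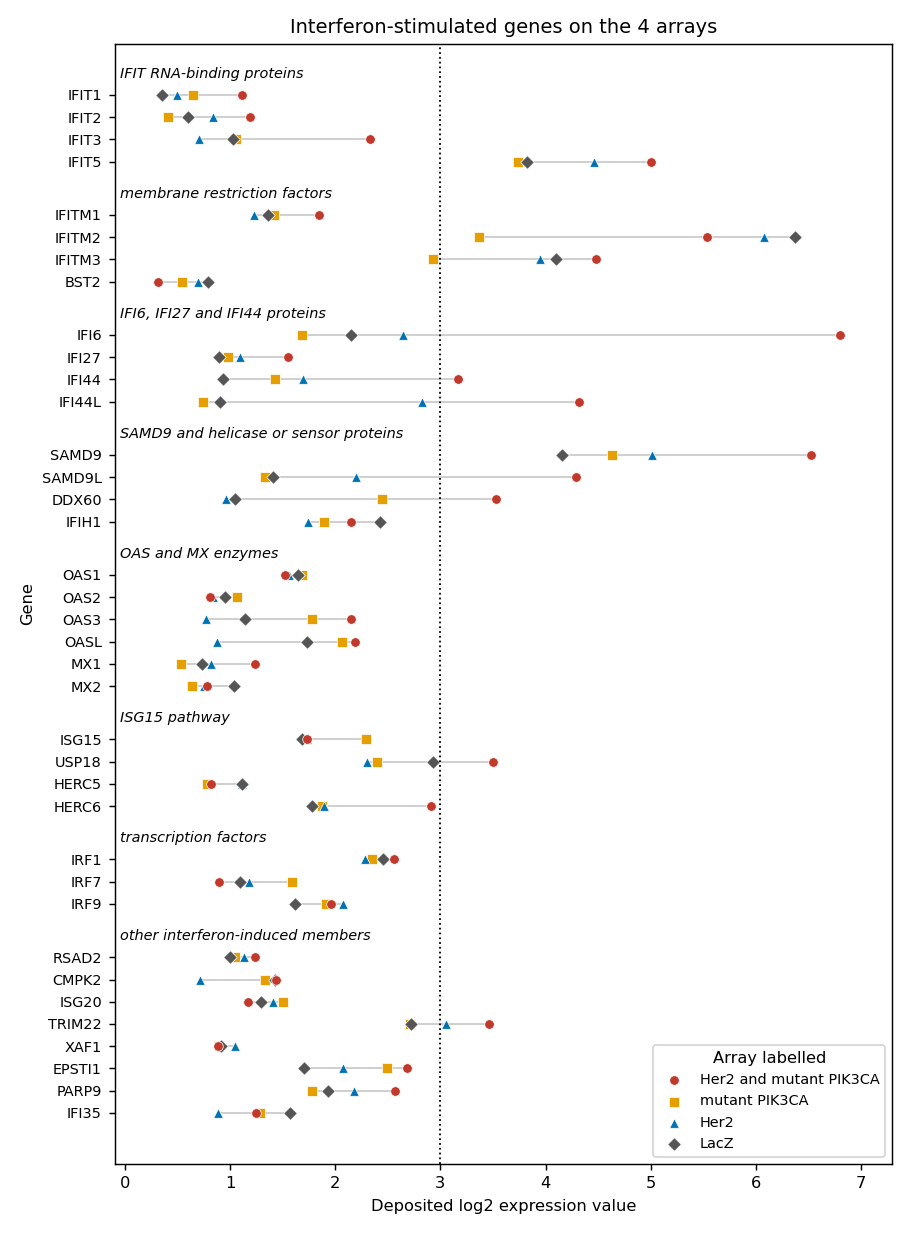
Deposited log2 expression value (horizontal axis) of each of the 37 measured interferon-stimulated genes (rows, grouped by role) on the 4 arrays (1 point each, no replicates). The dotted line marks a log2 value of 3. IFI6 read 6.81 on the double array and 2.64 or less on the others, while the OAS and MX enzymes stayed below 3 on all 4 arrays.

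At least 2-fold higher on the double array than on each of the 3 other arrays were 8 of 37 genes, where 2.62% of all genes measured met the same rule. They were IFI6, IFI44, IFI44L, SAMD9, SAMD9L, DDX60, IFIT3 and HERC6. DDX60 (1.09 above mutant PIK3CA) and HERC6 (1.03 above mutant PIK3CA and 1.02 above Her2) only just met it, and under quantile normalization these differences were 0.96, 0.93 and 0.89, which left 6 genes. Against the LacZ array alone, 10 of 37 were at least 2-fold higher (6.49% of all genes) and 0 at least 2-fold lower (4.44% of all genes), with a median log2 difference of 0.49 over the 37, against -0.04 over all genes. In all, 24 of 37 genes had their highest value on the double array, compared with 25.9% of all genes. Of these 24, 10 reached log2 3, and for genes near background it says little which array is highest. Several other canonical interferon-stimulated genes, such as ISG15, MX1, IFIT1 and RSAD2, stayed near background on the double array.

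IFI6, a small membrane protein with antiviral and anti-apoptotic activity, showed the largest difference. It read 6.81 on the double array, 1.68 on the array labelled mutant PIK3CA, 2.64 on the array labelled Her2 and 2.15 on the LacZ array. The double array thus stood alone, 25.2-fold above LacZ (log2 difference 4.65), and the arrays with a single gene lay within 0.49 of LacZ. By size of difference, IFI6 ranked 24 of 20918 genes for double minus LacZ and 3 of 20918 for double minus mutant PIK3CA. Its relative IFI27, also a small membrane protein, read 1.55, 0.98, 1.09 and 0.89 in the same order of arrays, a difference of 0.66 from LacZ that lay below 2-fold.

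IFI44L and IFI44 are related proteins encoded by neighbouring genes on chromosome 1. IFI44L read 4.32 on the double array, 0.75 on the array labelled mutant PIK3CA, 2.82 on the array labelled Her2 and 0.91 on the LacZ array. Here the double array was above LacZ by 3.41, and the Her2 array stood above it as well, by 1.91. In Her2 minus LacZ it was the only one of the 37 genes at least 2-fold higher (1.86% of all genes were), and 0 were at least 2-fold lower (1.67% of all genes). IFI44 read 3.17, 1.43, 1.69 and 0.93 on the double, mutant PIK3CA, Her2 and LacZ arrays, a difference of 2.24 between double and LacZ. PTGFR, the prostaglandin receptor gene on the other side of IFI44L, differed by 1.58 in the same comparison, and ADGRL4, next to IFI44, by -0.09.

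SAMD9 and SAMD9L, neighbouring genes on chromosome 7, encode related proteins that restrict poxviruses and slow cell growth. SAMD9 read 6.53 on the double array, 4.63 on the mutant PIK3CA array, 5.01 on the Her2 array and 4.15 on the LacZ array. SAMD9L read 4.29, 1.33, 2.20 and 1.41 in that order. Both were highest on the double array, by 2.37 and 2.89 over LacZ, and second highest on the Her2 array. Of the genes beside them, CDK6 differed by 0.39 and HEPACAM2 by 0.35 in double minus LacZ.

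DDX60, a helicase that assists RNA sensing, followed another order, with the mutant PIK3CA array second. It read 3.52 on the double array, 2.44 on the mutant PIK3CA array, 0.96 on the Her2 array and 1.04 on the LacZ array. The difference from LacZ was 2.48 on the double array and 1.40 on the mutant PIK3CA array. No other gene of the 37 was at least 2-fold higher in mutant PIK3CA minus LacZ (2.61% of all genes were). Its neighbour and paralogue DDX60L, which is outside the list of 38, differed by 1.19 in double minus LacZ. IFIH1, the sensor MDA5 of long double-stranded RNA, read between 1.74 and 2.43 on all arrays and was highest on the LacZ array.

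Among the IFIT proteins, which bind foreign RNA ends, IFIT5 read 5.00 on the double array, 3.74 on the mutant PIK3CA array, 4.46 on the Her2 array and 3.83 on the LacZ array. IFIT3 read 2.33, 1.05, 0.71 and 1.03 in that order. Their differences of 1.17 and 1.31 from LacZ on the double array passed 2-fold. IFIT1 and IFIT2, from the same cluster on chromosome 10, read at most 1.11 and 1.18, so their differences of 0.76 and 0.58 rest on values near background.

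**Figure D2:**
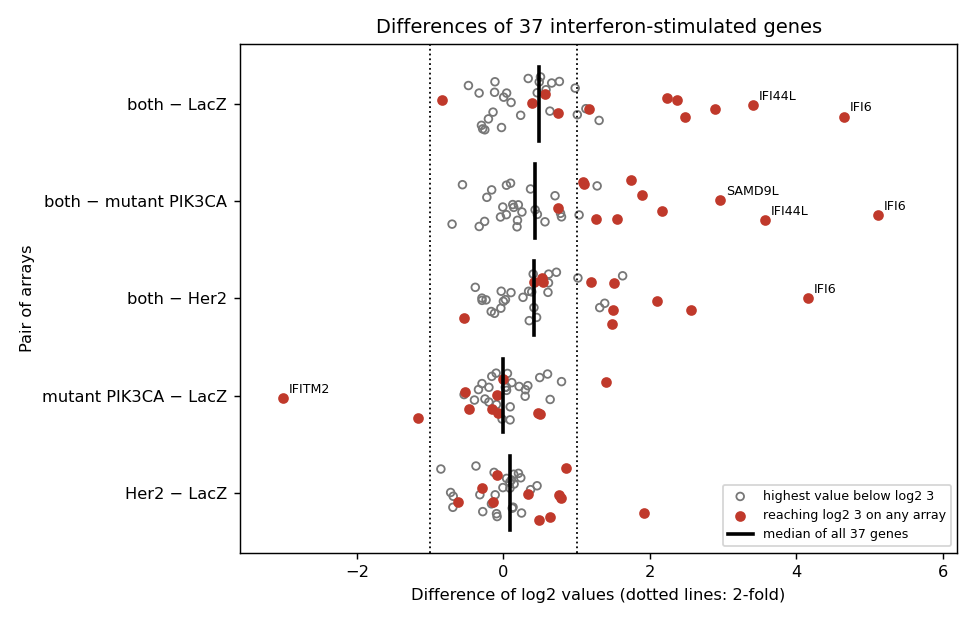
Difference of log2 values (horizontal axis) of the 37 genes in 5 pairs of arrays (rows, both meaning the array labelled with Her2 and mutant PIK3CA). Each point is 1 gene, filled where it reached log2 3 on any array, and the bar is the median of the 37. In the 3 pairs with the double array, 10, 12 and 11 genes lay at or right of the 2-fold line and 0 at or left of the opposite one.

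The promoters of the genes that were higher on the double array were read beside those of genes that stayed low, because a shared element is what defines this pathway. RefSeq promoter windows (assembly GRCh38.p14, 250 bases before to 50 after a gene's start) were found for 30 of the 38 genes. The core of the interferon-stimulated response element was searched on both strands as GAAA, any 2 bases, and GAAA again, where matches may overlap each other and other motifs. It was present in a window of 21 of 30 listed genes, compared with 4.38% of the 27305 genes with a window (3.57% of all windows). Of the 8 genes with a window that reached log2 3, 7 held it, and of the 21 measured below 3, 14 held it. The stretches below lie before the gene start, run 5′ to 3′ along the coding strand, and have the core in capitals, written as its reverse complement where it lies on the other strand. The first 6 belong to genes at least 2-fold higher on the double array than on LacZ.
IFI6, chr1:27672261-27672363, minus strand: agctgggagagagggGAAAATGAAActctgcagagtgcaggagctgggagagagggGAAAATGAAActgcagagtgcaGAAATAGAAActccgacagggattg
IFI44L, chr1:78620269-78620399, plus strand: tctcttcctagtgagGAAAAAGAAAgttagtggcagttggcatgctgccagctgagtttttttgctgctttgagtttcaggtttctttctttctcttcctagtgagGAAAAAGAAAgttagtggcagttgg
IFI44, chr1:78649756-78649788, plus strand: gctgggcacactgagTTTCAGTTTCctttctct
SAMD9, chr7:93118091-93118130, minus strand: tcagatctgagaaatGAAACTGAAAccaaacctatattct
DDX60, chr4:168318781-168318855, minus strand: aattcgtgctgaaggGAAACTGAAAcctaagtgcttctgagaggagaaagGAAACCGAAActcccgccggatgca
IFIT5, chr10:89414508-89414567, plus strand: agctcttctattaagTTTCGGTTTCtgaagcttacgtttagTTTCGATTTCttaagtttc

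The other 4 are shown because their genes did not follow that pattern. ISG15, IFIT1 and RSAD2 read below 3 on all arrays, and IFITM3 was lowest on the array labelled mutant PIK3CA. They were picked for this contrast after their values were seen.
ISG15, chr1:1013369-1013414, plus strand: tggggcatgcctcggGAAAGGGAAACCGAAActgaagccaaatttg
IFIT1, chr10:89392492-89392544, plus strand: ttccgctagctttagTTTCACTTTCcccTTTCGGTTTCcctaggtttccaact
RSAD2, chr2:6877617-6877656, plus strand: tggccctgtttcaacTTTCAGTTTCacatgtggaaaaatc
IFITM3, chr11:320871-320927, minus strand: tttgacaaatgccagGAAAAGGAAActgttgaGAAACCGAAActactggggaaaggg

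In IFI6 and IFI44L the printed stretch repeats itself around the core, with 3 and 2 matches. The core thus occurred before some genes that were higher on the double array and before some that stayed near background. Only genes holding the core have a printed stretch, so the stretches cannot show whether its presence separates the 2 kinds. The shares above split genes by reaching log2 3, and no share was computed for genes higher on the double array. SAMD9L and HERC6, both higher on the double array, had a window without these letters. The gamma-activated site, searched as TTCNNNGAA, was in a window of 10 of 30 listed genes, against 9.38% of genes with a window. Of the 8 listed genes with a window that reached log2 3, DDX60 alone held it. A match describes the letters only and is not a test of binding.

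The interferon-induced transmembrane proteins, which hinder the fusion of viruses with cell membranes, behaved differently from the genes above. IFITM2 read 5.53 on the double array, 3.36 on the mutant PIK3CA array, 6.08 on the Her2 array and 6.37 on the LacZ array. The mutant PIK3CA array stood apart below the other 3, by 3.01 under LacZ (a difference of -3.01, or 8.04-fold), which ranked 4 among the lowest differences of all 20918 genes. IFITM3 read 4.48, 2.93, 3.95 and 4.10 in the same order and was lowest on the mutant PIK3CA array too, with a difference of -1.17 from LacZ. These were the only 2 of the 37 at least 2-fold lower in that pair (1.93% of all genes were). On the double array IFITM2 was below LacZ by less than 2-fold (-0.84) and IFITM3 above it by 0.39. IFITM1, which lies between them on chromosome 11, read 1.23 to 1.85 with all arrays near background. The 3 genes resemble each other in sequence, and their probe sets could share signal. BST2 (tetherin), which holds budding viruses at the membrane, read at most 0.79.

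The OAS enzymes, which make the messenger that activates RNase L, and the MX GTPases read below 3 on all arrays. OAS3 read 2.15 on the double array, 1.78 on the mutant PIK3CA array, 0.77 on the Her2 array and 1.14 on the LacZ array. OASL, a relative without that enzymatic activity, read 2.19, 2.06, 0.88 and 1.73 in that order. They differed at least 2-fold between the double and Her2 arrays, by 1.38 and 1.32, and OAS3 by 1.01 between double and LacZ. OAS1 and OAS2, beside OAS3 on chromosome 12, read 1.52 to 1.68 and 0.81 to 1.06. MX1 read between 0.53 and 1.24 and MX2 between 0.64 and 1.03.

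In the ISG15 pathway, the ubiquitin-like ISG15 itself read 1.73 on the double array, 2.29 on the mutant PIK3CA array, 1.73 on the Her2 array and 1.68 on the LacZ array. USP18, the protease that removes ISG15 and dampens interferon receptor signalling, read 3.50, 2.40, 2.30 and 2.93 in that order. It was highest on the double array, by 1.10 over mutant PIK3CA and 1.20 over Her2, but by less than 2-fold over LacZ (0.58). The ligase HERC5 read 0.78 to 1.12, and its neighbour and relative HERC6 read 2.91 on the double array and 1.78 to 1.89 on the others.

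Among the transcription factors of the pathway, differences were small in all 5 pairs. IRF1 read 2.55 on the double array, 2.35 on the mutant PIK3CA array, 2.29 on the Her2 array and 2.45 on the LacZ array. IRF9, the DNA-binding partner of STAT2, read 1.96, 1.91, 2.08 and 1.62, and IRF7, a driver of interferon alpha production, read 0.89, 1.59, 1.18 and 1.09. None of these 3 differed 2-fold in any pair, and a second IRF9 probe set read 1.25 to 1.99.

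The remaining 8 genes also stayed within 2-fold in all 5 pairs. TRIM22, an antiviral ubiquitin ligase, was the only one to reach 3, with 3.46 on the double array, 2.71 on the mutant PIK3CA array, 3.05 on the Her2 array and 2.72 on the LacZ array. EPSTI1 read 2.68, 2.49, 2.07 and 1.70 in that order, and PARP9, the partner of the ubiquitin ligase DTX3L, read 2.57, 1.78, 2.18 and 1.93. Both were highest on the double array, by 0.98 and 0.64 over LacZ. RSAD2 (viperin, which makes an antiviral nucleotide), its neighbour CMPK2 (a nucleotide kinase), the exonuclease ISG20, XAF1 and IFI35 read at most 1.57 on any array. In total 23 of 37 genes differed 2-fold in none of the 5 pairs. The share of all genes for which this holds was not computed, so it is not read as a trait of the list. For those of the 23 near background, the count does not show an unchanged level.

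The effect of each label was compared between the pair with LacZ and the pair with the other introduced gene, which share no array. Between double and mutant PIK3CA, 12 of 37 genes were at least 2-fold higher (5.27% of all genes) and 0 lower (3.48% of all genes). Between double and Her2, 11 were at least 2-fold higher (4.41% of all genes) and 0 lower (2.64% of all genes). Of the corresponding single-gene pairs, Her2 minus LacZ had 1 gene at least 2-fold higher and 0 lower, and mutant PIK3CA minus LacZ had 1 higher (2.61% of all genes) and 2 lower (1.93% of all genes), IFITM2 and IFITM3. The departure from additivity is the double value minus both single values plus the LacZ value. It was at least 1 in 9 of 37 genes (5.81% of all genes) and at or below -1 in 0 (4.35% of all genes). It was 4.63 for IFI6, 2.46 for IFITM2, 2.17 for SAMD9L, 1.73 for USP18, 1.70 for IFITM3, 1.66 for IFI44L, 1.60 for IFIT3, 1.17 for DDX60 and 1.04 for SAMD9. For IFITM2 and IFITM3 this value came from a low mutant PIK3CA array, whereas for IFI6 and SAMD9L it came from a high double array.

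Counted apart, the 11 genes reaching log2 3 gave 7 at least 2-fold higher and 0 lower in double minus LacZ (14.1% and 9.64% of the 8339 genes reaching 3). Double minus mutant PIK3CA gave 10 higher and 0 lower (11.1% and 7.40%), and double minus Her2 gave 7 higher and 0 lower (9.35% and 5.32%). Her2 minus LacZ gave 1 higher and 0 lower (3.63% and 2.97%), and mutant PIK3CA minus LacZ gave 1 higher and 2 lower (5.60% and 4.10%). The departure was at least 1 in 8 and at or below -1 in 0 (10.8% and 7.71%). Of the 11, 10 were highest on the double array (33.7% of genes reaching 3) and 6 were at least 2-fold above each other array (5.91%). Because 6 of the 11 met the level through the double array alone, nothing is read from these counts.

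**Figure D3:**
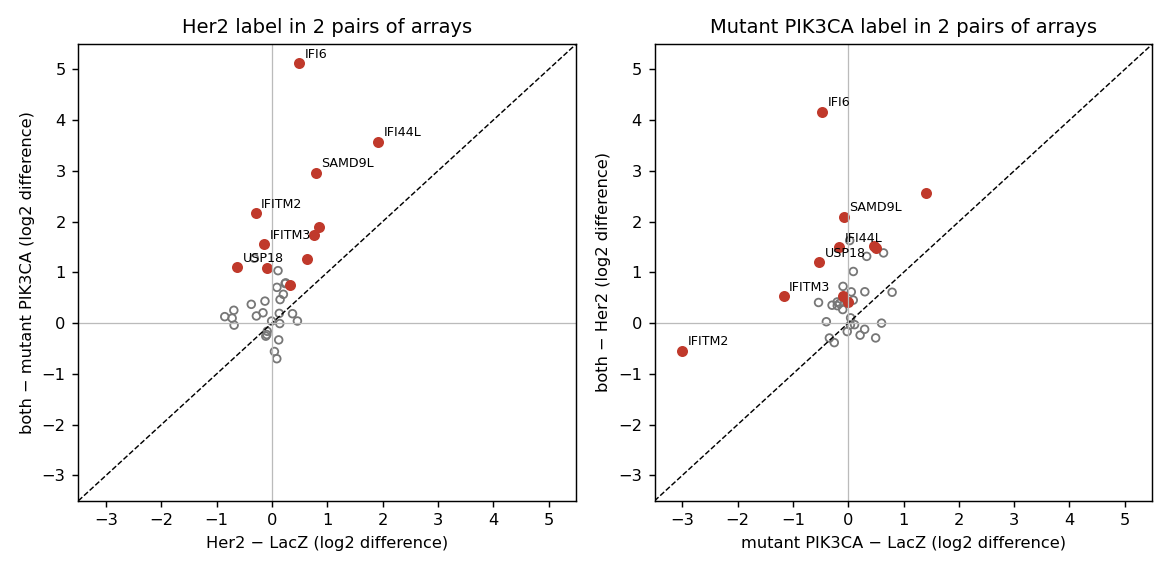
Log2 differences of the 37 genes attached to the Her2 label (left) and to the mutant PIK3CA label (right), in the pair with LacZ (horizontal axis) and in the pair with the other introduced gene (vertical axis). Both means the array labelled with Her2 and mutant PIK3CA, filled points reached log2 3 on any array, and the dashed line marks equal differences. The vertical distance from it is the departure from additivity, 4.63 for IFI6.

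Genes upstream of the 38 were set beside them, and their counts between double and LacZ stand beside 6.49% of all genes at least 2-fold higher and 4.44% lower (14.1% and 9.64% among genes reaching log2 3). None of 20 measured interferon genes reached 3 on any array, with IFNB1 at 0.99 on the double array, 1.28 on mutant PIK3CA, 1.33 on Her2 and 1.17 on LacZ. Between double and LacZ, 1 of the 20 (IFNA5, below 3 on all arrays) was at least 2-fold higher and 0 lower, with a median difference of 0.03. Of 9 receptor and kinase genes, 2 were at least 2-fold higher and 0 lower in that pair, with a median of 0.55, and 8 of the 9 reached log2 3. The kinase JAK2 read 3.73 on the double array, 3.26 on mutant PIK3CA, 2.40 on Her2 and 2.25 on LacZ. IFNGR1, a chain of the interferon gamma receptor, read 5.78, 4.59, 5.63 and 4.62, and thus was higher on both arrays labelled with Her2. IFNAR1, a chain of the type I receptor, read 6.68 on the double array and 6.52 on the LacZ array. IFNAR2, the other chain of that receptor, read 4.24 on the double array and 3.26 on the LacZ array, a difference of 0.98.

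Nucleic acid sensors and their adaptors went both ways between double and LacZ, with 5 of 15 at least 2-fold higher (6.49% of all genes), 3 at least 2-fold lower (4.44% of all genes) and a median of 0.24. RIGI, a sensor of RNA ends, read 4.89 on the double array, 3.40 on mutant PIK3CA, 3.20 on Her2 and 3.35 on LacZ. IFI16, a DNA sensor, read 6.66, 6.27, 5.49 and 4.81, with the mutant PIK3CA array close to the double one. By contrast TICAM1, the adaptor of TLR3, read 2.18 on the double array, against 4.18 on LacZ, and MAVS, the adaptor of RIGI, 5.65 against 7.13. CGAS, a DNA sensor, read 3.53, 2.39, 2.52 and 2.71 on the double, mutant PIK3CA, Her2 and LacZ arrays, and STING1, its adaptor, read 2.96, 2.71, 3.76 and 2.63. Of 8 feedback inhibitors, 0 were at least 2-fold higher in that pair (6.49% of all genes) and PTPN6, below 3 on all arrays, was the 1 lower (4.44% of all genes). SOCS1, an inhibitor of JAK kinases, read 2.81, 2.73, 1.94 and 3.11, and TRIM21, a ubiquitin ligase, read 3.11, 1.94, 2.70 and 2.42.

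A further list of 41 measured interferon-induced genes outside the 38 had 11 at least 2-fold higher (6.49% of all genes) and 1 lower (4.44% of all genes) between double and LacZ, with a median of 0.38. Of the 41, 22 reached log2 3, and among all genes reaching it the shares were 14.1% and 9.64%. It shares IFI16, RIGI, EIF2AK2 and DHX58 with the sensor list. APOL6 read 4.08 on the double array, 3.58 on mutant PIK3CA, 2.34 on Her2 and 2.17 on LacZ. The guanylate-binding protein GBP2 read 3.74, 1.95, 3.79 and 2.48, and the checkpoint ligand CD274 (PD-L1) read 3.49, 2.47, 2.10 and 1.81. SP110, a nuclear body protein, read 3.86, 2.38, 2.47 and 2.87. The death ligand TNFSF10 (TRAIL) was the 1 lower gene, with 1.38 on the double array, against 2.68 on LacZ. The chemokines CXCL9, CXCL10 and CXCL11, typical of a strong interferon gamma response, read at most 1.33 on any array.

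**Figure D4:**
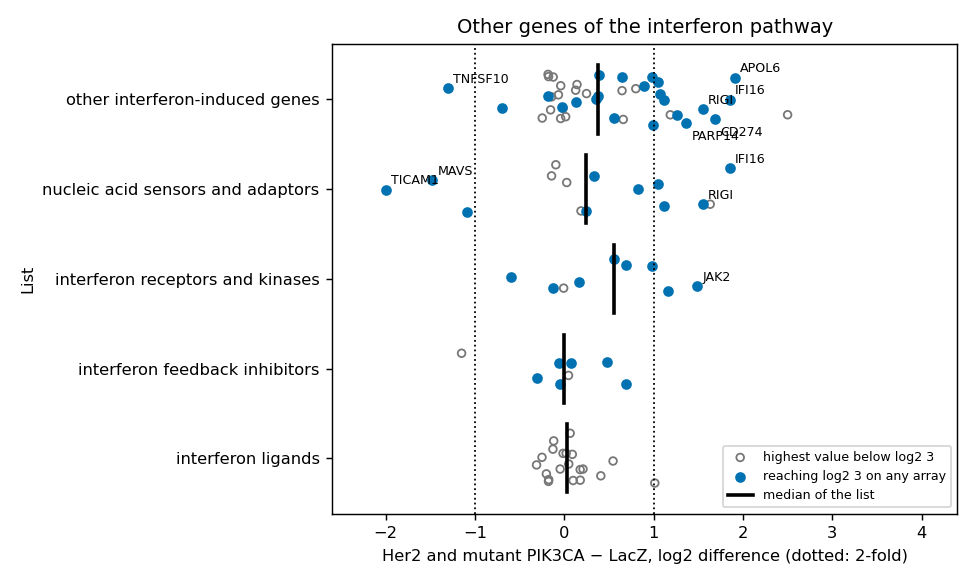
Log2 difference between the array labelled with Her2 and mutant PIK3CA and the LacZ array (horizontal axis) for 5 lists of other interferon pathway genes (rows). Points are genes, filled where they reached log2 3 on any array, and the bar is the list median. The interferon ligands cluster around 0 (median 0.03), while 11 of 41 other interferon-induced genes lie at or right of the 2-fold line.

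Between double and LacZ, some fibroblast, epithelial and proliferation markers also differed at least 2-fold, and none of the immune or endothelial markers did. Of 6 fibroblast markers, 3 were at least 2-fold higher on the double array than on LacZ (6.49% of all genes). LUM read 6.26 on the double array, against 0.52, 0.63 and 0.78 on mutant PIK3CA, Her2 and LacZ, and DCN 5.06, against 1.15, 0.57 and 0.73. DPT read 7.86 on the double array and 8.38 on the Her2 array, against 3.69 on mutant PIK3CA and 3.41 on LacZ. The collagen chains COL1A1 and COL1A2 and the receptor PDGFRB read at most 2.24 on any array. The summed linear level of these 6 markers was 349 on the double array, 24.6 on mutant PIK3CA, 344 on Her2 and 22.4 on LacZ. Of 9 measured epithelial markers, 4 were at least 2-fold lower (4.44% of all genes) and 1 higher (6.49% of all genes) in double minus LacZ. The 1 higher was the keratin KRT14, with 3.43 on the double array, 2.24 on mutant PIK3CA, 1.80 on Her2 and 1.47 on LacZ. The summed linear level of the 9 markers was 786 on the double array, 2982 on mutant PIK3CA, 1846 on Her2 and 2269 on LacZ. The proliferation marker MKI67 read 8.56, 6.76, 3.39 and 4.60 in that order. Of 7 immune markers, CD14 alone reached 3, on the Her2 array (3.24), and the leukocyte marker PTPRC read at most 0.93. Of 3 measured endothelial markers, KDR alone reached 3, with 4.81 on the double array, 2.03 on mutant PIK3CA, 3.57 on Her2 and 3.83 on LacZ. The part of these differences in the values of the interferon-stimulated genes was not tested.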

How the data were processed

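Gene expression was measured on Affymetrix arrays in 4 MCF10A samples, 1 per group, labelled per the labels' protocols with an Affymetrix WT Plus kit. The authors deposited log2 expression values per probe set, for which the submitters' processing notes name RMA and oligo without versions. RMA includes background correction, quantile normalization and probe summary. That the scale is log2 was inferred from the use of RMA and the span of -0.77 to 12.35.

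Of 53617 probe sets, the platform annotation names 1 symbol for 23871, several for 1842 and none for 27904. Symbols were updated through gene identifiers with RefSeq (GRCh38.p14), which changed 90. Small RNAs (1537 probe sets) were left out. Each gene was read from its probe set with the highest mean, which left 20918 genes. No filter on low values was used, and genes reaching log2 3 on any array were also described apart. Differences of log2 values were counted at 1 or more in either direction, and the counting was tested on simulated data. With 1 array a group no p-value is given. An additive fit over the 4 arrays was not used, because its residual is the departure from additivity. Members and lists were chosen with earlier results of these data known. Genes named from the other lists reach log2 3 and differ at least 2-fold in a pair, at most 6 a list. Other genes named there, neighbours, IFNB1, IFNA5, IFNAR1, IFNAR2, PTPN6, DDX60L and the chemokines were chosen after their values were seen. Alternatives were a filter at log2 3 or 5, quantile normalization or cyclic loess (limma 3.58.1, 3 iterations, R 4.3.3), the mean of all probe sets, probe sets with several symbols kept and a 1.5-fold threshold. Tables and counts were made with Python 3.11.15 and pandas 2.3.3.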

Additional observations from a re-analysis of the deposited data

Results flagged for a closer look

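For 8 genes the difference attached to a label changed sign with the other introduced gene present and passed 2-fold in 1 of the pairs. With 1 array a group these contrasts were not tested. The share of all genes meeting the same rule was not computed, so nothing is read from the count of 8. With the other gene minus without it, the value was 4.63 for IFI6, 1.66 for IFI44L and 2.17 for SAMD9L under the mutant PIK3CA label. IFI6, for example, differed by 4.16 between double and Her2 and by -0.47 between mutant PIK3CA and LacZ. Under the Her2 label it was 1.60 for IFIT3, 2.46 for IFITM2 and 1.17 for DDX60. IFITM2 differed by 2.17 between double and mutant PIK3CA and by -0.30 between Her2 and LacZ. IFITM3 (1.70) and USP18 (1.73) changed sign under both labels. USP18 differed by 1.10 between double and mutant PIK3CA and by -0.63 between Her2 and LacZ. Several of the opposite values are small (-0.08 for DDX60 and SAMD9L), and their sign has no replicate behind it.

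Outside the main values, a probe set annotated to both IRF9 and its neighbour RNF31 read 2.74 on the double array, 2.69 on mutant PIK3CA, 3.30 on Her2 and 2.07 on LacZ. Its difference of 1.23 between Her2 and LacZ passed 2-fold, against 0.46 for the probe set of IRF9 alone, and it cannot be assigned to either gene.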

How the results depend on the processing

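Of 37 differences of at least 2-fold among the listed genes in the 5 pairs, all 37 stayed past 2-fold under cyclic loess. Averaging probe sets or keeping those with several symbols could change IRF9 alone, which is in none of the 37, so these alternatives say nothing about them. Under quantile normalization 32 did and 5 fell short in the same direction (HERC6 in 2 pairs, OAS3, DDX60 and USP18), which left 6 of the 8 genes above each other array. With genes below log2 3 dropped, 7 of 11 were at least 2-fold higher between double and Her2 (9.35% of genes reaching 3). Without the filter it was 11 of 37 (4.41% of all genes). A filter at log2 5 left IFI6, IFITM2 and SAMD9. It gave 2 higher for double against Her2, 2 against LacZ and 3 against mutant PIK3CA, 0 higher for Her2 against LacZ, and 0 higher and 1 lower for mutant PIK3CA against LacZ. With probe sets of several symbols kept, Her2 against LacZ gave 2 higher (1.86% of all genes). The probe set of IRF9 and RNF31 (1.23) then stood for IRF9. At 1.5-fold, Her2 against LacZ gave 5 higher and 5 lower (7.36% and 8.05% of all genes). Mutant PIK3CA against LacZ gave 4 higher (8.42%). Double gave 1 lower against LacZ (12.2%) and 1 lower against mutant PIK3CA (10.2%). The counts under the filters and at 1.5-fold moved because fewer genes were counted or the threshold was lower. No paired analysis was possible because each group has 1 array. Most of the 26 genes below log2 3 lie near the median over all probe sets, which limits what their differences show.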
